A study of Mus musculus with 16 samples.

Results

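The genes of the MHC class I antigen presentation pathway were followed in leukemic and host bone marrow cells from WT and from IL-6 KO mice. The 10 genes were taken from a list, by symbol: the light chain B2m, the heavy chains H2-K1 and H2-D1, the peptide transporter subunits Tap1 and Tap2, the loading factor Tapbp, the immunoproteasome subunits Psmb8, Psmb9 and Psmb10, and the transactivator Nlrc5. All 10 were listed in the tumor table of 15080 genes and in the stroma table of 13344 genes, which share 11812 genes.

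Every recipient was a C57BL/6J mouse, either WT or IL-6 KO (the Il6 gene deleted in the germline), bought at 6 to 8 weeks of age, and each received 500000 BCR-ABL+, Arf-/- B-cell acute lymphoblastic leukemia (B-ALL) cells in the tail vein. These cells were a single transplanted line marked with retroviral mCherry, and the labels give them no Il6 deletion, so that tumor libraries of both genotypes hold the same leukemic genotype in different hosts. At day 8, without chemotherapy, mCherry+ cells (called tumor) and mCherry- host cells (called stroma) were sorted from bone marrow and total RNA was sequenced after ribosomal RNA depletion. The 16 libraries were 4 each of WT tumor, IL-6 KO tumor, WT stroma and IL-6 KO stroma. Each library is described in the labels as coming from a mouse, but whether each came from a different mouse is not stated, so p-values measure the spread between these libraries.

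Nearly every nucleated cell shows fragments of its own proteins on MHC class I molecules, where CD8+ T cells can recognize them. Proteasomes cut the proteins, with Psmb8, Psmb9 and Psmb10 replacing the constitutive subunits Psmb5, Psmb6 and Psmb7 in the immunoproteasome. The Tap1 and Tap2 heterodimer carries the peptides into the endoplasmic reticulum, tapasin (Tapbp) helps load them, and the heavy chain reaches the cell surface mainly with B2m. Nlrc5 and interferon-gamma signaling are known to raise transcription of much of the pathway.

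In stroma the erythroid and neutrophil markers summed to more than the mesenchymal and endothelial markers in every library. Of 12 mesenchymal and endothelial markers, 6 were listed in stroma and summed to 92.8 to 175 per 1000000 normalized counts of protein-coding genes in WT libraries and to 34.7 to 485 in IL-6 KO libraries, and the defining genes Cxcl12, Lepr, Pdgfra, Adipoq, Cdh5 and Emcn were not listed. Of 12 erythroid markers, 11 were listed and summed to 38260 to 52010 in WT libraries and to 9961 to 57750 in IL-6 KO libraries. Of 12 T and NK cell markers, 5 were listed in tumor, with sums of 24.9 to 31.1 in WT and 19.4 to 25.5 in IL-6 KO libraries, and 2 in stroma, with sums of at most 12.45 in any library, while Cd3e, Cd3d, Cd3g and Cd8a were listed in neither table. Together, the 2 non-coding RNAs Rn7s1 and CT010467.1 took 19.2% to 50.1% of a library's normalized counts in WT stroma, 71.5% to 79.0% in IL-6 KO stroma, 3.41% to 4.12% in WT tumor and 5.41% to 6.25% in IL-6 KO tumor, so that the genotypes did not overlap in either compartment. In tumor, 12 of 12 B lineage markers were listed, with sums between 4989 and 5098 per 1000000 in WT and between 5040 and 5449 in IL-6 KO libraries, and 13 of 13 neutrophil markers summed to between 169 and 190.0 in WT and between 250.2 and 600.4 in IL-6 KO libraries. The 12 monocyte and macrophage markers, all listed in tumor, summed to between 121 and 143 in WT and between 162 and 282 in IL-6 KO libraries. In stroma the neutrophil sums were 2289 to 4023 in WT and 2045 to 9512 in IL-6 KO libraries. The part of cell composition and of these RNAs in the values that follow was not tested, and in sorted bulk RNA fewer cells of a type and less RNA per cell cannot be told apart. Normalized values do not show how deeply a library was sequenced, so no counting interval was computed.

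The genes lie mostly together. On GRCm38, 7 of the 10 are on chromosome 17 within 1.35 Mb, from Tapbp (start 33915899) to H2-D1 (end 35267499), in the mouse MHC. B2m is on chromosome 2 (122147686 to 122153083), and Psmb10 and Nlrc5 are on chromosome 8. None is on chromosome 5, which carries Il6. Tap1 and Psmb9 start next to each other on opposite strands, with exons that overlap by up to 212 nucleotides, and Tapbp shares up to 88 exonic nucleotides with Zbtb22 on the same strand. Among the members, H2-K1 alone had near copies among transcripts of other genes (97% identity or more along 150 nucleotides or more), Gm8909 and H2-Q7, so its reads could be shared with them. H2-Q7, the only one of these listed, lay between 42.7 and 97.2 in tumor and between 169 and 435 in stroma. Shared stretches under 150 nucleotides, which can hold a whole read, were not looked for in H2-D1 or any other member.

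RefSeq promoters (GRCm38.p6) were given for 8 of the 10 genes. The 250 bases before the start site are shown for the light chain, for both heavy chains, whose protein products pair with it, and for Tapbp, the gene with the largest log2 fold change among the members in both compartments. Capitals mark matches on either strand to the letters CCAAT (the core of NF-Y sites), TGACG (CREB-like) or GGGNNTTNC (NF-kB-like). They also mark matches to TTTCNNTTC (like interferon-stimulated response elements), TTCNNNGAA (as in gamma-activated sites) or GGGCGG (a GC box).
B2m (chr2:122147437-122147686, plus strand): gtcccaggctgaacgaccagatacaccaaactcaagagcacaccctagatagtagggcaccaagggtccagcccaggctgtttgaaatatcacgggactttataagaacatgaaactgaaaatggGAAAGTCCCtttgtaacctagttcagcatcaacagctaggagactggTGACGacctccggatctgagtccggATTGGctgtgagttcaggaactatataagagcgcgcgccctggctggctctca
H2-K1 (chr17:34000334-34000583, minus strand): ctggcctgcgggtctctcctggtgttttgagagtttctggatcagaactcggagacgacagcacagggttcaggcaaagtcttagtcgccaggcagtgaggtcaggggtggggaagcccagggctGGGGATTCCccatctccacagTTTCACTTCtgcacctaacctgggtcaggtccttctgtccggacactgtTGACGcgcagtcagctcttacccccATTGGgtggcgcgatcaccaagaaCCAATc
H2-D1 (chr17:35262844-35263093, plus strand): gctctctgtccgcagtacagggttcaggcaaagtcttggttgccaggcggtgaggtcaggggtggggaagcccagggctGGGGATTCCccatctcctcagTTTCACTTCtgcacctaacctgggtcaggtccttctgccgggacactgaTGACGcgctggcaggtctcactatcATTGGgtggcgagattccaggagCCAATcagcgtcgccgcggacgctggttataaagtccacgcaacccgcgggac
Tapbp (chr17:33919228-33919477, plus strand): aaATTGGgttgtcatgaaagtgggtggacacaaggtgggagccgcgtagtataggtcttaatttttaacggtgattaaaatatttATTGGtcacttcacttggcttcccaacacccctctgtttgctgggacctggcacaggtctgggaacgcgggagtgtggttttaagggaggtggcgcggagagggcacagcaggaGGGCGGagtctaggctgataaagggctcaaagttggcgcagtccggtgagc
These letters were chosen after the promoters of the members had been read, so the counts are descriptions. Of the 8 genes, 6 had CCAAT (33.8% of all 32851 mouse promoter windows), 5 had TGACG (17.8%), 3 had GGGNNTTNC (13%), 3 had GGGCGG (32.7%), 2 had TTTCNNTTC (6.31%) and 1 had TTCNNNGAA (7.02%). B2m, H2-K1 and H2-D1 each had GGGNNTTNC, TGACG and CCAAT in this order towards the start site, and both heavy chains also had TTTCNNTTC between the first and the second of these. Matches to different motifs did not overlap in the member windows. The windows of H2-K1 and H2-D1 were 60.6% identical when aligned end to end and 89.6% identical over the 192 columns of their best local alignment. The windows of Tap1 and Psmb9 shared 225 bases.

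The heavy chains and B2m were the most abundant members in WT tumor. To compare genes, normalized counts were divided by the length of the longest coding transcript and given as a share per 1000000 of the 10515 protein-coding genes in both tables. On this scale the mean share in WT tumor was 765 ± 83.6 (SD, n = 4) for B2m, 569 ± 76.9 for H2-D1, 399 ± 47.0 for H2-K1 and 246 ± 10.1 for Psmb8. The ranges of neighbours among these 4 genes did not overlap. Tap1, Psmb10, Psmb9, Tapbp and Tap2 followed at mean shares between 54.1 and 97.4, each overlapping the next, and Nlrc5 was lowest at 23.7 ± 3.55. In IL-6 KO tumor H2-D1 (619 ± 30.1) came before B2m (516 ± 39.5) and H2-K1 (426 ± 105), and the last pair overlapped.

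In WT stroma the order was H2-D1 (651 ± 95.01), H2-K1 (362 ± 115) and B2m (317 ± 85.1), the last pair overlapping. The immunoproteasome genes had smaller shares in stroma than in tumor. The mean share of Psmb8 was 32.9 in WT stroma and 47.1 in IL-6 KO stroma, against 246 and 279.8 in tumor, and that of Psmb9 was 25.1 and 21.3, against 83.1 and 70.1. The tables were normalized separately, so these shares are set side by side without a test. In IL-6 KO stroma B2m came after H2-D1, H2-K1, Tapbp and Tap2, at 103 ± 23.1, and every neighbour in the order of that group overlapped the next. The length was chosen after values had been seen and it decides the order: with the median coding transcript length H2-D1 was first in all 4 groups, at 1974 in WT tumor, and B2m had a mean share of 513 there.

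**Figure D1:**
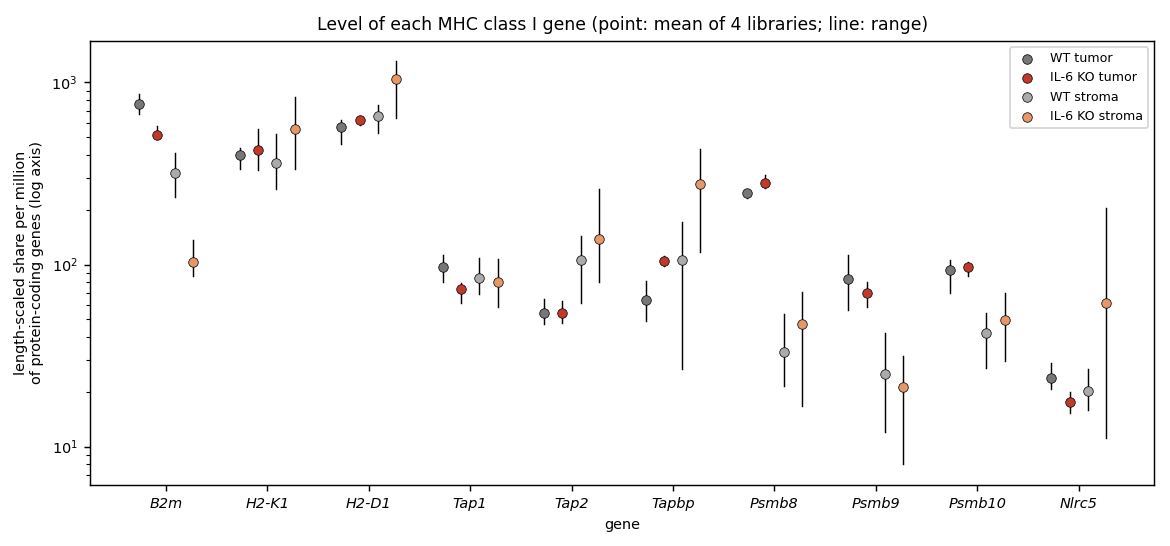
Mean share per 1000000 (log axis) of the length-scaled normalized counts of protein-coding genes, for each of the 10 genes and 4 groups, with lines from the lowest to the highest of 4 libraries. H2-D1, H2-K1 and B2m are at the top in WT tumor, B2m in IL-6 KO stroma is at 103, and the line of Nlrc5 in IL-6 KO stroma reaches 205.

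The first comparison asked which of these genes differed in leukemic cells between IL-6 KO and WT hosts. Tapbp and Psmb8 were higher and B2m was lower in IL-6 KO tumor, while the heavy chains, the transporter, Psmb9, Psmb10 and Nlrc5 did not pass the test. At a limma adjusted p under 0.05, 2 of 10 members were higher and 1 lower, against 10.6% and 9.16% of the 14493 genes tested, so that the members' shares were near or somewhat above the background. The median log2 fold change was 0.15 over the members and -0.01 over all genes. In 4 members the genotypes did not overlap, which held for 25.6% of all genes. With the trends of each library with GC content and transcript length removed, 2 of 10 members passed (Tapbp higher and Tap1 lower), against 15.1% of all genes, and the calls over all genes went from 1542 higher and 1328 lower to 1528 and 667. WT tumor 2 was the lowest WT tumor library in 8 of the 10 members. All fold changes compare IL-6 KO with WT on a scale of log2(normalized count + 1).

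**Figure D2:**
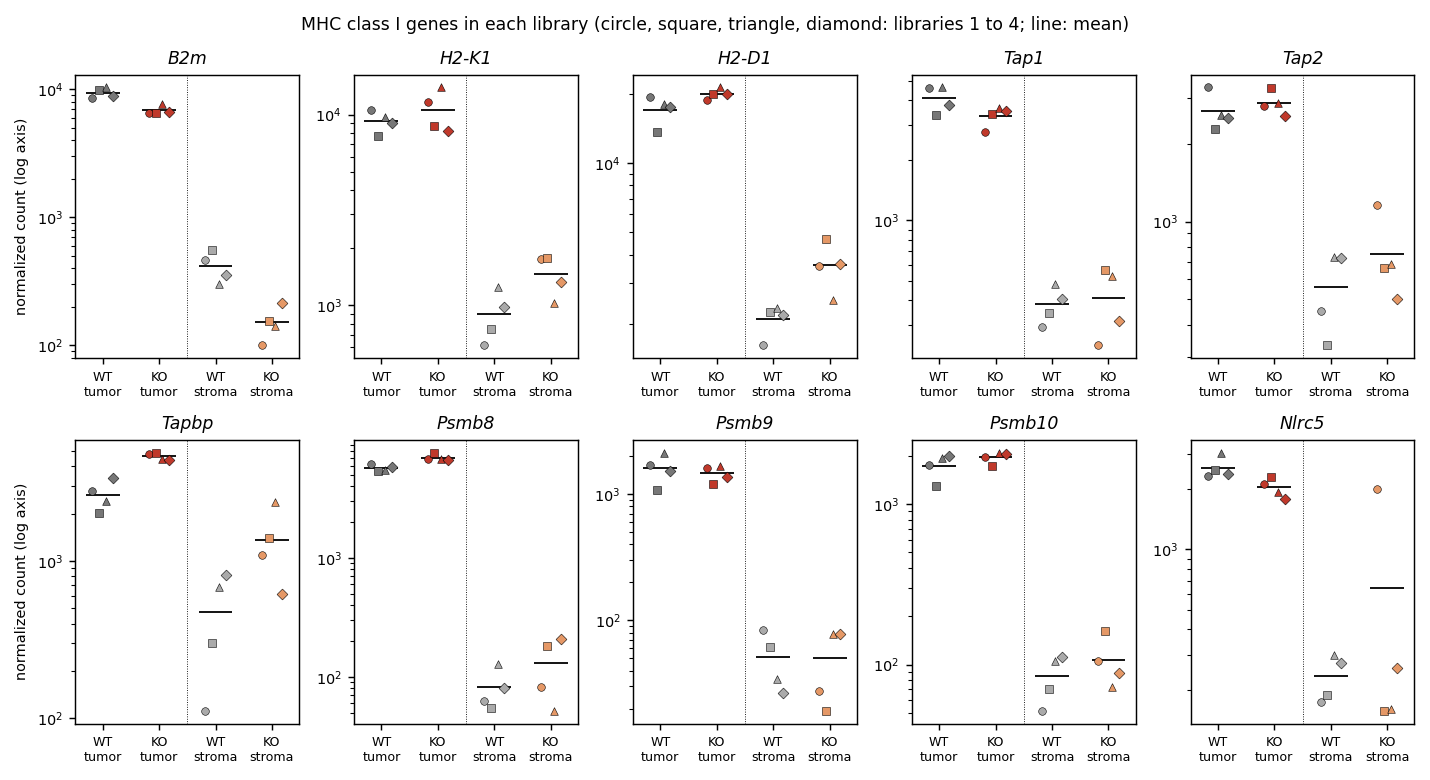
Normalized counts (log axes) of the 10 genes in every library of the 4 groups, with the mean as a line. Tumor and stroma were normalized separately, so heights are comparable only on one side of the dotted line. B2m in IL-6 KO libraries lies below every WT library in both compartments, and Nlrc5 in IL-6 KO stroma has 1 library at 2012.

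B2m, the invariant light chain, had normalized counts of 8584, 9776, 10308 and 8887 in WT tumor 1 to 4 and of 6493, 6521, 7658 and 6599 in IL-6 KO tumor 1 to 4. All IL-6 KO libraries lay below all WT libraries (log2 fold change -0.46, SE 0.08, limma adjusted p = 0.0060). B2m differs from the other members in base composition, with 41.2% GC in its transcript against 52.6% to 57.3% in the others. In tumor, log2 fold changes rose with GC over all genes, from a median of -0.29 in the decile of genes lowest in GC to 0.23 in the highest decile. B2m lay in the decile with a median of -0.19, and 7 members lay in that with a median of 0.21. With the GC and length trends removed, the value for B2m was -0.08 (limma adjusted p = 0.433). In that fit the median over all genes was 0.07, in place of -0.01.

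Tapbp encodes tapasin, which bridges Tap1 and Tap2 to the empty heavy chain. Its normalized counts were 2803, 2008, 2410 and 3366 in WT tumor and 4816, 4878, 4469 and 4381 in IL-6 KO tumor, without overlap (log2 fold change 0.83, SE 0.14, limma adjusted p = 0.0046). With the GC and length trends removed it was 0.62 (adjusted p = 0.0111), and Tapbp passed the test with each library left out and under every other alternative. Zbtb22, the neighbour that shares exonic sequence on the same strand, stood at 0.36 in tumor on the same log2 scale (limma adjusted p = 0.0621). Psmb8, the immunoproteasome subunit with chymotrypsin-like activity, had 6173, 5370, 5511 and 5837 in WT and 6846, 7687, 6804 and 6634 in IL-6 KO tumor, also without overlap. The difference on the log2 scale, 0.29 (SE 0.07, limma adjusted p = 0.0213), became 0.08 (adjusted p = 0.380) without the GC and length trends, and it also missed the threshold without WT tumor 2 (adjusted p = 0.0565), WT tumor 3 (0.0609) or IL-6 KO tumor 1 (0.0506).

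Nlrc5, which acts on class I promoters, had 2334, 2495, 3032 and 2371 in WT tumor and 2128, 2309, 1928 and 1790 in IL-6 KO tumor, with no overlap and WT tumor 1 and IL-6 KO tumor 2 the nearest libraries. The log2 fold change was -0.33 (SE 0.11, limma adjusted p = 0.0608). It passed in 2 of 11 alternatives with all libraries, array weights (adjusted p = 0.0172) and the GC trend alone removed (0.0499). Of the fits with 1 library left out, it passed only without IL-6 KO tumor 2 (adjusted p = 0.0303). With the length trend alone removed it was -0.18 (adjusted p = 0.233), and with both trends removed -0.32 (0.0566). Tap1, the transporter subunit with the neighbouring promoter to Psmb9, lay between 3377 and 4635 in WT and between 2777 and 3639 in IL-6 KO tumor, with overlap. Its log2 fold change was -0.29 (limma adjusted p = 0.122), and with the GC and length trends removed it was -0.51 (adjusted p = 0.0257), which passed. For Tap2, the partner of Tap1, the difference was 0.12 (limma adjusted p = 0.525).

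The heavy chains did not pass the test, and the groups overlapped in both. H2-K1 lay between 7703 and 10524 in WT tumor and between 8225 and 13884 in IL-6 KO tumor, and H2-D1 between 13614 and 19339 and between 18765 and 21337. Their log2 fold changes were 0.18 (95% interval -0.19 to 0.55) and 0.24 (0.01 to 0.46), with limma adjusted p = 0.479 and 0.131. Psmb9 and Psmb10, which take the places of Psmb6 and Psmb7, had log2 fold changes of -0.11 and 0.19 (limma adjusted p = 0.719 and 0.347). The spread in WT tumor was wide in both, from 1083 to 2122 for Psmb9 and from 1297 to 1982 for Psmb10, with WT tumor 2 lowest each time.

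**Figure D3:**
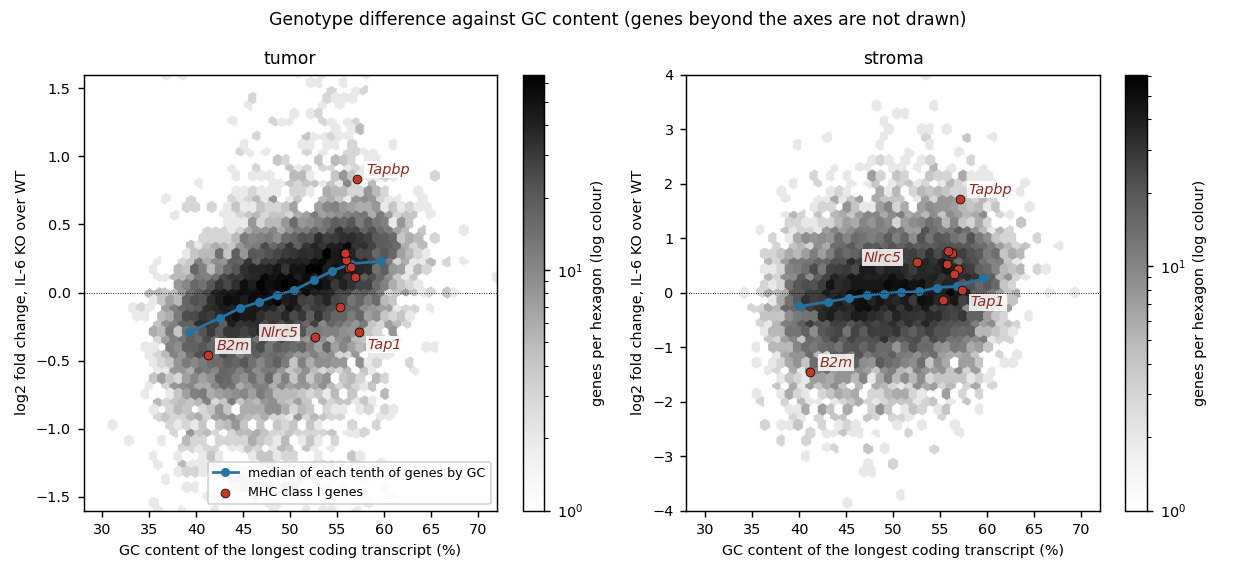
Log2 fold change of IL-6 KO over WT against the GC content of the longest coding transcript, with all tested genes as shaded hexagons (log colour), the median of each decile of genes by GC as a line and the 10 genes as red points. The median rises from -0.29 to 0.23 in tumor and from -0.255 to 0.26 in stroma, and B2m is the only red point below 50% GC.

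In stroma, the second comparison, none of the 10 genes passed an adjusted p of 0.05, as was the case for all but 1 of the 12202 genes tested (0.0082%). At an unadjusted p under 0.05, 4 of the 10 members differed, against 9.15% of all genes. These were B2m, lower in IL-6 KO stroma, and Tapbp, H2-D1 and H2-K1, higher. The genotypes did not overlap in 2 members, B2m and H2-D1, against 5.79% of all genes. The median log2 fold change was 0.48 over the members and -0.01 over all genes.

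B2m had normalized counts of 462, 550.5, 301 and 357 in WT libraries and of 99.7, 155, 140.3 and 214 in IL-6 KO libraries of stroma. The highest IL-6 KO library lay below the lowest WT library. The log2 fold change was -1.46 (95% interval -2.27 to -0.66, limma unadjusted p = 0.0018, adjusted p = 0.324). With the GC and length trends removed it was -1.17 (unadjusted p = 0.0067, adjusted p = 0.443), and it lay between -1.64 and -1.28 with any 1 library left out. H2-D1 had 1613, 2263, 2349 and 2188 in WT libraries and 3567, 4697, 2539.5 and 3629.9 in IL-6 KO libraries (log2 fold change 0.76, limma unadjusted p = 0.0212, adjusted p = 0.465). Every IL-6 KO library was above every WT library, with IL-6 KO stroma 3 closest.

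H2-K1 had 615, 754, 1250.1 and 984 in WT libraries and 1742, 1766, 1031 and 1325 in IL-6 KO libraries of stroma, where IL-6 KO stroma 3 lay within the WT range. Its log2 fold change was 0.72 (limma unadjusted p = 0.0443, adjusted p = 0.536). The log2 fold change of H2-Q7, its listed near copy, was -0.11. Tapbp had 112, 301, 684 and 810 in WT libraries and 1088, 1393, 2358 and 616 in IL-6 KO libraries of stroma, where IL-6 KO stroma 4 lay inside the WT range. Its log2 fold change was 1.72 (95% interval 0.44 to 2.99, limma unadjusted p = 0.0123, adjusted p = 0.434). This value lay between 1.15 and 2.09 with 1 library left out.

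Nlrc5 turned on a single library. Its values lay between 174 and 299 in WT libraries and at 2012, 157, 160.0 and 257 in IL-6 KO libraries. The log2 fold change of 0.57 became -0.29 without IL-6 KO stroma 1. Tap1 and Tap2 had log2 fold changes of 0.05 and 0.43, and Psmb8, Psmb9 and Psmb10 of 0.53, -0.13 and 0.33, with 95% intervals that all held 0 and limma adjusted p-values of at least 0.743. The lowest values of the immunoproteasome genes in stroma were 19.2 for Psmb9 (IL-6 KO stroma 2), 51.5 for Psmb10 (WT stroma 1) and 51.7 for Psmb8 (IL-6 KO stroma 3), levels at which the pseudocount of 1 understates changes slightly.

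**Figure D4:**
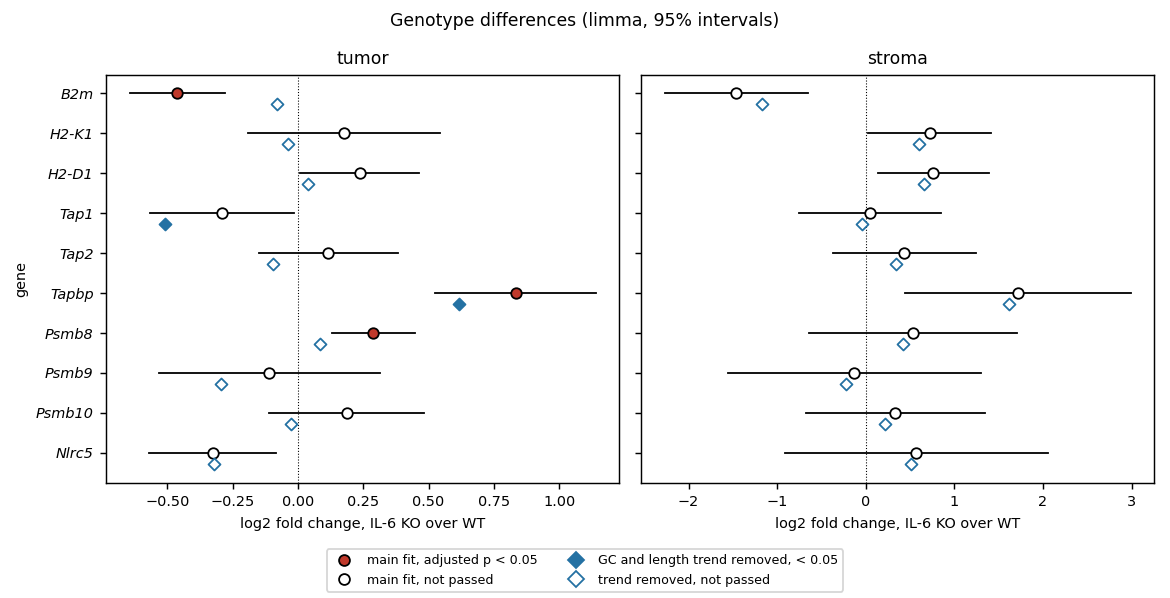
Log2 fold changes of IL-6 KO over WT for the 10 genes in tumor and stroma (the x axes differ), as circles with 95% intervals from limma, filled where the adjusted p is under 0.05, and as diamonds after the removal of GC and length trends. B2m is at -0.46 and -0.08 in tumor and at -1.46 and -1.17 in stroma, and Tapbp is at 0.83 and 0.62 in tumor and at 1.72 and 1.62 in stroma.

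Whether the genotype difference itself differed between stroma and tumor was tested in a joint fit over 10887 genes. None of the 10 members passed, and 1 of all genes did (0.00919%). B2m had the smallest p among the members. Its difference of log2 fold changes, stroma minus tumor, was -1.002 (95% interval -1.74 to -0.26, limma unadjusted p = 0.0111, adjusted p = 0.424). The share of all genes at an unadjusted p under 0.05 was not computed for this fit. For Tapbp the difference was 0.88 (95% interval -0.53 to 2.30, limma adjusted p = 0.764). The joint fit took all libraries as independent. Which tumor and stroma libraries came from the same mouse is not stated, so any correlation within a mouse was not modelled.

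Ratios within a library do not depend on its scaling. The ratio of both heavy chains to B2m, each per length, was between 0.988 and 1.57 in WT tumor and between 1.90 and 2.14 in IL-6 KO tumor. In stroma it was between 2.14 and 5.40 in WT and between 10.2 and 23.9 in IL-6 KO libraries. IL-6 KO libraries lay above WT libraries in both compartments, by 0.68 on the log2 scale in tumor and by 2.21 in stroma (exact permutation test, two-sided, p = 0.0286 in each, the smallest that 4 against 4 allow, adjusted p = 0.0952 over 10 ratios). With GC and length trends removed the difference was 0.09 in tumor (exact permutation p = 0.543) and 1.80 in stroma (exact permutation p = 0.0286, adjusted p = 0.0952).

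The Tap1/Tap2 ratio compares the subunits of the transporter, whose transcripts have 57.3% and 56.9% GC. It was between 1.63 and 2.10 in WT tumor and between 1.16 and 1.61 in IL-6 KO tumor, lower by 0.41 on the log2 scale without overlap (exact permutation p = 0.0286, adjusted p = 0.0952), and the difference was -0.41 with the trends removed as well. In stroma the difference was -0.39 with overlapping groups (exact permutation p = 0.600). The ratios of immunoproteasome to constitutive subunits in tumor differed by -0.12 for Psmb8/Psmb5, -0.55 for Psmb9/Psmb6 and 0.04 for Psmb10/Psmb7 (exact permutation p = 0.571, 0.0857 and 0.914). With the GC and length trends removed they differed by -0.21, -0.70 and -0.26 (exact permutation p = 0.229, 0.0286 and 0.143, adjusted p = 0.457, 0.0952 and 0.357). None of the 10 ratios passed an adjusted p of 0.05, which 10 comparisons of 4 against 4 could reach only if at least 6 of them had the smallest p.

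**Figure D5:**
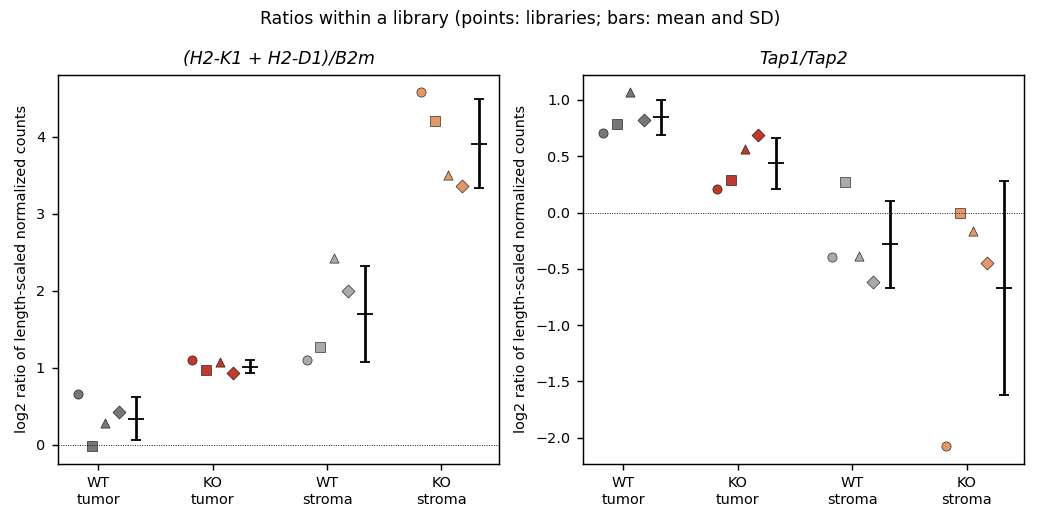
Log2 ratios of length-scaled normalized counts in each library for the heavy chains over B2m and for Tap1 over Tap2, with the mean and SD of 4 libraries beside the points. IL-6 KO libraries are above WT libraries for the heavy chains over B2m in both compartments and below them for Tap1 over Tap2 in tumor, where the ranges are 1.16 to 1.61 and 1.63 to 2.10 on the linear scale.

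The rest of the pathway was read from 7 lists with 72 genes. In tumor 65 were tested, and 10 were higher and 10 lower in IL-6 KO at a limma adjusted p under 0.05 (against 10.6% and 9.16% of all genes tested, the background for each list here), with a median log2 fold change of 0.03. Of the constitutive catalytic subunits, Psmb6 rose from 4614 ± 300.1 to 6279 ± 296 (SD, n = 4; log2 fold change 0.45, limma adjusted p = 0.0036) and Psmb5 from 4408 ± 522 to 5846 ± 705 (0.41, adjusted p = 0.0307). For Psmb7 the value was 0.15 (limma adjusted p = 0.284). Of the 11 genes of peptide loading and trimming, 5 were higher and 3 lower. The lower ones were the disulfide isomerase of the loading complex Pdia3 (log2 fold change -0.41, limma adjusted p = 0.0063), the glycoprotein folding sensor Uggt1 (-0.35, 0.0110) and the peptide-trimming aminopeptidase Erap1 (-0.47, 0.0115).

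Pomp, a chaperone of proteasome assembly, was the only 1 of 6 in its list to pass in tumor (log2 fold change -0.63, limma adjusted p = 0.0054). Of 6 cytosolic peptidases tested, Blmh was lower (-0.86, limma adjusted p = 0.0025) and Dpp9 higher (0.32, 0.0170). Among 18 regulators of transcription, 1 was higher and 5 lower in IL-6 KO tumor. Creb1, a factor that binds class I promoters, was lower (log2 fold change -0.33, limma adjusted p = 0.0124) and Irf8 higher (0.38, 0.0115). Irf1 and Rfx5, both activators of class I promoters, had log2 fold changes of -0.15 and -0.22 (limma adjusted p = 0.546 and 0.320). Of 9 interferon receptor and signaling genes, Tyk2 alone passed (0.295, limma adjusted p = 0.0215). None of the 12 class Ib heavy chains tested did. Of these 12, 1 had an unadjusted p under 0.05, against 5091 of all 14493 genes tested. GC content was 39.6% to 50.6% in the named genes that were lower and 55.2% to 58.6% in the named genes that were higher. Genes called but not named are not in these ranges.

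In stroma 62 genes of these lists were tested and none passed, with 4 at an unadjusted p under 0.05 (against 9.15% of all genes) and a median log2 fold change of -0.15. Irf1 and Rfx5 had log2 fold changes of 0.03 and 0.53, and Psmb5, Psmb6 and Psmb7 of 0.72, 0.22 and -0.44.

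Across the 45 pairs of members, deviations from the genotype means over 8 tumor libraries correlated with a median Pearson r of 0.28, and 36 pairs were positive. In stroma the median was 0.12 and 25 pairs were positive. Pairs share libraries and their scaling, so these are descriptions. The genes whose log2 values followed the mean of the standardised members most closely over the 8 libraries were Tgif2, Acad10, Arfip2, Aptx and AI413582 in tumor (Pearson r between 0.931 and 0.958 among 11228 genes) and Apobr, Zfp746, Jaml, Mnt and Wfdc21 in stroma (0.965 to 0.972 among 8067 genes). Genotype means were left in here. The highest r among so many genes over 8 libraries can be high without shared regulation, so these are descriptions too.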

How the data were processed

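The authors sequenced single-end reads of rRNA-depleted directional libraries, aligned them to mm10, quantified transcripts with salmon 1.3.0 with GC and sequence bias correction, and normalized with DESeq2 1.28.1. They deposited a table of normalized counts per compartment, a scaled signal and not whole reads. Whole reads could not be recovered, so per-library depth and its precision are unknown and count tests were not run. The authors also deposited their DESeq2 fold changes and p-values, which were not used.

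Samples were grouped by genotype and compartment from the labels. The values were tested with limma 3.58.1 (R 4.3.3) as log2(normalized count + 1), genes with a mean over 10, genotype as the only term, trended variances, two-sided, Benjamini-Hochberg over all genes, threshold 0.05, one fit per table. A joint fit with weights per compartment tested the difference between compartments. The 5 ratios per compartment used exact permutation over 70 assignments. GC and length trends were removed per library by loess (span 0.3). GENCODE vM21 (GRCm38) held 15069 of 15080 tumor and 13338 of 13344 stroma identifiers and gave positions, lengths and GC. The annotation release used by the authors is not given in the sources used here, nor is whether counting used strand. Near copies were found with BLAST 2.17.0. Alignments used Biopython 1.88, the rest Python 3.11.15, pandas 2.3.3 and matplotlib 3.10.9. The limma fits were first tried on simulated data.

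The members and lists were chosen with earlier results of these data known. All members were described. Up to 3 genes per list and compartment with the smallest adjusted p under 0.05 were named, with Psmb5, Psmb6, Psmb7, Irf1 and Rfx5 always given (1 gene that the rule names is not reported here), and the 5 genes per compartment (mean of at least 50) most correlated with the members. Zbtb22 and H2-Q7, which share sequence with members, and Rn7s1 and CT010467.1 were added after values were seen. So were the longest coding transcript as gene length (the median was tried first), the motif letters, the local alignment of promoters (an end to end one was tried first), and the removal of GC or length trends alone and from ratios. Other alternatives were pseudocounts of 0.5 and 5, other filters, quantile normalization, median centring, array weights, a block for the replicate number, fits without each library in turn, and shares of all genes.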

Additional observations from a re-analysis of the deposited data

Results flagged for a closer look

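In 60 groups of 4 libraries (10 genes and 5 ratios in each of 4 groups), 4 had a library whose gap to its nearest neighbour took up more of the group's range than the 95% critical value of Dixon's test. Chance flags about 1 in 20 groups. Nlrc5 had a normalized count of 2012 in IL-6 KO stroma 1, against 157 to 257 in the other libraries of that group (gap over range 0.946). In the same library Zbtb22, the neighbour of Tapbp on chromosome 17, was at 1906, against 167 to 201 in the other IL-6 KO stroma libraries, which was noticed after its values were seen. B2m was at 7658 in IL-6 KO tumor 3, against 6493 to 6599 in the others (gap over range 0.909), and remained below every WT library. The log2 ratio Psmb8/Psmb5 was -0.18 in IL-6 KO tumor 2, against -0.75 to -0.72 in the others (gap over range 0.952). The log2 ratio Psmb9/Psmb6 was -2.76 in WT stroma 4, against -1.57 to -1.41 in the others (gap over range 0.880).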

How the results depend on the processing

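In tumor the count of members called higher was 1 in place of 2 with the replicate number as a block, with the GC and length trends removed and with the GC trend alone removed, and between 1 and 2 with 1 library left out. The member lost was Psmb8 each time (adjusted p = 0.0546 with the block). The count called lower was 2 in place of 1 with array weights (B2m and Nlrc5) and with the GC trend alone removed (Tap1 and Nlrc5), and between 1 and 2 with 1 library left out. With the GC and length trends removed it was 1, Tap1 in place of B2m. With the GC trend alone removed B2m had -0.15 (adjusted p = 0.145), and with the length trend alone removed -0.35 (adjusted p = 0.0220). Over all genes, in place of 1542 higher and 1328 lower, removal of both trends gave 1528 and 667, of the GC trend alone 1690 and 685 and of the length trend alone 2251 and 972, and leaving out 1 library gave 834 to 1868 higher and 735 to 1459 lower. Array weights gave 2218 higher and 1935 lower over all genes, and the block gave 1217 and 1013. Among the members the block changed no call other than that of Psmb8. WT and IL-6 KO libraries with the same number correlated at -0.02 to 0.00 in tumor and -0.03 to 0.13 in stroma (deviations from group means). These values do not settle whether the numbers pair the samples. Tumor and stroma libraries of the same number were not correlated. No member was called in stroma under any alternative run for it. None was called in the difference between compartments with a pseudocount of 5, median centring, equal weights, the block or 1 library left out, the alternatives run there. No ratio passed with a pseudocount of 1, the median length, paired sign flips, both trends removed or 1 library left out.

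Signs turned only in members and ratios that had not passed. In tumor these were H2-K1 (-0.036), Psmb10 (-0.025) and Tap2 (-0.094) with the GC and length trends removed, Tap2 (-0.05) with the GC trend alone removed, and Psmb9 (-0.284 to 0.039 with 1 library left out). In stroma they were Tap1 (-0.006 with quantile normalization, -0.048 with both trends and -0.10 with the GC trend removed, -0.14 to 0.28 with 1 library left out), Psmb9 (-0.41 to 0.24) and Nlrc5 (-0.29 to 0.93). Stroma minus tumor turned for Psmb9 (0.00 with a pseudocount of 5, -0.31 to 0.35 with 1 library left out), Psmb10 (-0.071 to 0.309) and Psmb8 (-0.051 to 0.612). Ratios turned for Psmb10/Psmb7 in tumor (-0.26 with both trends removed, -0.11 to 0.12 with 1 library left out) and in stroma for Psmb8/Psmb5 (-0.61 to 0.23), Tap1/Tap2 (-0.612 to 0.078) and Psmb9/Psmb6 (-0.723 to 0.007). In tumor the median over all genes was 0.07 with both trends removed and 0.08 with the GC trend alone removed, so small values there have a shifted baseline. The cause of the turned signs was not tested. As shares of all genes in place of protein-coding genes, 39 of 40 levels moved by more than 1 SD, all but Nlrc5 in IL-6 KO stroma. B2m moved from 765 to 423 in WT tumor and from 103 to 3.09 in IL-6 KO stroma. Paired sign flips of 4 ratios cannot give a p under 0.125.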
